A study of Sus scrofa with 5 samples.

Results

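A group of 819 nuclei from the aortic wall of Ossabaw pigs is described here, chosen from 36447 nuclei with 1000 or more unique molecular identifiers (UMIs, the count of captured RNA molecules). They were picked in 2 steps. The first kept 3494 nuclei that held a UMI of at least 2 of the 7 fibroblast genes PDGFRA, DCN, LUM, FBLN1, COL1A1, PI16 and DPT and no UMI of PECAM1, CSF1R or CD163, which mark endothelial cells and macrophages. The second kept the 819 nuclei (23.4%) that also held a UMI of at least 2 of the 6 genes RALYL, STK32B, CYP27A1, SORCS2, GRIA4 and COMP. They are called the 6-gene nuclei, and the 2675 nuclei that passed the first step alone are called the other fibroblast-rule nuclei. The 6 genes came from measured values of these nuclei, so their levels, and those of the 7 fibroblast genes, are given as a description with no test.

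Single-nucleus RNA sequencing was done on the abdominal aorta of 5 castrated male Ossabaw pigs, with 1 library per pig. The 3 obese pigs had eaten a high-fat, high-fructose feed (HF/HFru) and the 2 control pigs chow, from 12 months of age, for 6 months by one label and 9 months by another. The Ossabaw is a swine strain used as a model of diet-induced obesity. A frozen vessel piece of about 50 mm was dissociated per pig and DRAQ5-stained nuclei were sorted, so shares describe captured nuclei of the whole wall. Values of a gene are listed below for obese replicates 1, 2 and 3, then for control replicates 1 and 2, as UMIs per 1000000 UMIs of the class (CPM).

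Fibroblasts make and remodel the collagens, elastic microfibrils and proteoglycans of the vessel wall. In the aorta they lie mainly in the adventitia, the outer coat, where PDGFRA, a receptor for platelet-derived growth factor, and DCN, the collagen-binding proteoglycan decorin, are usual markers. Adventitial fibroblasts that carry PI16, a secreted peptidase inhibitor, are often described as a less specialised pool, and COMP, a pentameric thrombospondin of cartilage and tendon, is made by matrix-producing mesenchymal cells.

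The libraries held from 21516249 to 47724416 UMIs, and nuclei with 1000 or more UMIs had medians of 2456 to 3234.5 UMIs. The 6-gene nuclei numbered 91, 73 and 106 in the obese pigs and 393 and 156 in the control pigs. Their median depth was 3757, 4711 and 4729.5, then 4706 and 3969.5 UMIs, against 4538, 4877 and 4239, then 5356 and 4806 in the other fibroblast-rule nuclei. The summed UMIs ranged from 418221 in obese replicate 1 to 2174773 in control replicate 1, so control replicate 1 gives the most precise levels. Pairs of libraries shared 10 to 29 barcodes, and no shared barcode was a 6-gene nucleus in both libraries. Scrublet's automatic threshold marked 2 barcodes as doublets in all, too few for it to have worked, and no nucleus was removed from the main values. An alternative filter on the highest Scrublet scores and on RNA quality would remove 158 of the 819 nuclei (19.3%), namely 30, 7 and 12, then 88 and 21.

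The label of these nuclei was checked against its markers. RALYL had a UMI in 57.8% of them, STK32B in 69.1%, CYP27A1 in 63.2%, SORCS2 in 78.1% and GRIA4 in 64.5%, while COMP had one in 18.9%. Of the fibroblast markers outside the rule, the summed level was 1982, 3654 and 2946, then 3593 and 3162 CPM in the 6-gene nuclei and 1301, 1761 and 1474, then 1965 and 1617 CPM in the other fibroblast-rule nuclei, higher in the 6-gene nuclei of every pig. Smooth muscle RNA was abundant in both classes. The summed level of 9 smooth muscle genes was 3644, 2944 and 3557, then 2850.0 and 4143 CPM in the 6-gene nuclei and 6391, 5802 and 9330.0, then 6707 and 7701 CPM in the others. In 388 of the 819 nuclei (47.4%) UMIs of the 7 fibroblast genes outnumbered those of 6 smooth muscle genes, against 299 of the 2675 others (11.2%). In those 388 nuclei the smooth muscle sum was 919.5, 653 and 893, then 962 and 1039 CPM. There the fibroblast markers outside the rule summed to 2725, 4443 and 3914, then 4273 and 4021 CPM. In the 299 others they summed to 2636, 3295 and 2051, then 3866 and 3628 CPM, close to the 388 in obese replicate 1. Single markers of that list went both ways. The median log2 ratio of the 6-gene nuclei to the others was -1.28 for C7 and 2.96 for COL6A3, and -2.94 and 0.91 between the 388 and the 299. The markers thus bear out the fibroblast part of the label in some of the nuclei and COMP in fewer, so the nuclei are called by their rule. The part of smooth muscle RNA in each result was not tested. Levels are given beside those of the nuclei with more fibroblast than smooth muscle UMIs where it matters, a restriction made in both classes.

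Marker lists of other cell types differed in level. The list of B or plasma cells summed to 1581, 3088 and 1203, then 980.3 and 863 CPM, higher in each obese pig than in either control pig, and to 88.5, 62.7 and 99.9, then 74.5 and 64.4 CPM without EBF1, a transcription factor gene also expressed in fibroblasts, with CD79B at 0. The endothelial list, without PECAM1 which the rule set to 0, summed to 43.0, 25.6 and 15.9, then 18.4 and 25.5 CPM. The macrophage list, with CSF1R and CD163 set to 0 by the rule, summed to 33.5, 25.6 and 4.34, then 8.74 and 10.9 CPM. For T or NK cells the list summed to 52.6, 2.32 and 7.24, then 22.1 and 13.4 CPM with CD2 at 0. The Schwann cell list summed to 78.9, 246 and 17.4, then 43.2 and 172 CPM, with obese replicate 2 and control replicate 2 the high pigs. SCN7A, a sodium channel gene described below, was a part of it. In the others the list summed to 10.8, 147 and 5.42, then 8.88 and 7.75 CPM, lower in every pig. The pericyte list was at 275, 355 and 305, then 386 and 531 CPM against 431, 521 and 617, then 689.7 and 975 CPM in the others. The adipocyte list summed to 16.7, 6.97 and 34.7, then 8.74 and 4.86 CPM and the kidney tubule list to 47.8, 32.5 and 31.8, then 32.6 and 36.4 CPM. Of the Schwann cell list, SOX10 had 1 UMI or none in each pig, although the list as a whole was higher than in the others. The list of chondrocyte and tendon genes summed to 100.4, 139 and 259, then 119.6 and 242 CPM, with TNMD, a tendon gene, at 0. Most of this came from COL11A1, ACAN and FMOD, described below, with means over the pigs of 70.0, 47.8 and 27.0 CPM. COL11A1 is also a leading gene picked by its class ratio. CILP and CILP2 had means of 10.2 and 9.04 CPM. SCX, CHAD, MATN3, COL9A1 and COL2A1 had 3.22, 2.57, 1.10, 0.80 and 0.37 CPM, so the list as a whole was not raised evenly. In the others the list summed to 31.1, 30.0 and 40.4, then 32.5 and 39.8 CPM.

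The 6 genes of the rule were high in every pig by construction. RALYL, which encodes an RNA-binding protein of the RALY family, had 526, 488 and 753, then 844 and 697 CPM in the 6-gene nuclei and 13.8, 6.84 and 4.06, then 13.3 and 4.93 CPM in the others. STK32B, a serine/threonine kinase gene, had 509, 444 and 858, then 854 and 1059 CPM against 5.92, 3.57 and 5.64, then 5.84 and 8.80 CPM. SORCS2, a receptor of the sortilin family that binds neurotrophin precursors, had 471, 381 and 561, then 599 and 814 CPM against 28.1, 9.51 and 37.0, then 22.7 and 32.8 CPM. All 5 pigs were alike in this contrast, and no pig of one class overlapped the other class. CYP27A1, the mitochondrial sterol 27-hydroxylase, had 380.2, 390.3 and 350.2, then 392 and 329 CPM against 15.3, 16.9 and 3.39, then 11.0 and 12.7 CPM, the narrowest spread of the 6 over the pigs. GRIA4, a subunit of AMPA glutamate receptors, had 342, 523 and 318, then 638 and 420.1 CPM against 15.3, 8.92 and 2.26, then 9.11 and 5.63 CPM. COMP had 175, 123 and 171, then 82.3 and 437 CPM against 1.48, 0.297 and 2.48, then 4.44 and 4.58 CPM, and here the pigs differed most, with control replicate 2 highest and control replicate 1 lowest.

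The 6 genes were found together to unequal extents. Of the nuclei with STK32B, 81.6% also held SORCS2, and of those with COMP, 84.5% held SORCS2 and 83.2% STK32B. GRIA4 was the gene least often found with COMP, in 44.5% of the COMP nuclei and in 64.5% of all 6-gene nuclei. Near the threshold, 566 fibroblast-rule nuclei held exactly 1 of the 6 genes, just outside, and 211 held exactly 2, just inside. A further 197 held 3, 212 held 4, 175 held 5 and 24 held all 6, while 2109 held none.

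Levels by the number of the 6 genes in a nucleus were taken over all pigs pooled, and the mix of pigs differed between the steps. Nuclei with none of the 6 numbered 258, 450 and 620 in the obese pigs, then 451 and 330 in the control pigs. Those with 4 numbered 17, 12 and 27, then 115 and 41. Several genes that the rule did not use followed the number of the 6 genes in these pooled levels. Of these, EPHB1 was among the 20 leading genes picked below by class ratio, and MEOX1 was named after its values were seen. A rise over the threshold thus follows in part from the choice. EPHB1, a receptor for ephrin-B ligands, went from 6.11 CPM in nuclei with none of the 6 to 21.7 with 1, 119.8 with 2, 281 with 3 and 380.1 with 4. MEOX1, a homeobox gene, went from 1.31 to 10.7, 35.2, 92.1 and 168 CPM over the same steps. Just inside the threshold, nuclei with 2 of the genes thus lay between those with 1 and those with 4. MYH11, the smooth muscle myosin heavy chain, ran the other way, at 2453, 2194, 1526, 1153 and 680.2 CPM, and the share of nuclei with more fibroblast than smooth muscle UMIs was 9.29%, 18.2%, 34.1%, 40.6% and 59.4%. Within nuclei with more fibroblast than smooth muscle UMIs, MYH11 was at 176, 138, 226, 144 and 167 CPM with no order, and EPHB1 still went from 11.3 to 451 CPM. In those nuclei ABCA6, a lipid transporter gene of other fibroblasts, was at 262 and 267 CPM with 0 and 1 of the genes, 70.6 with 2, 20.02 with 3 and 3.22 with 4. C7, a terminal complement component, went from 95.4 and 138 CPM to 28.2, 6.67 and 0. A deeper nucleus also has more chances to hold UMIs of several of the 6 genes. MEOX1 was higher in the 6-gene nuclei of both control pigs than in any obese pig, as given below. Orders within single pigs were not taken, and the part of depth and of the pig mix was not tested, so these orders are a description.

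**Figure D1:**
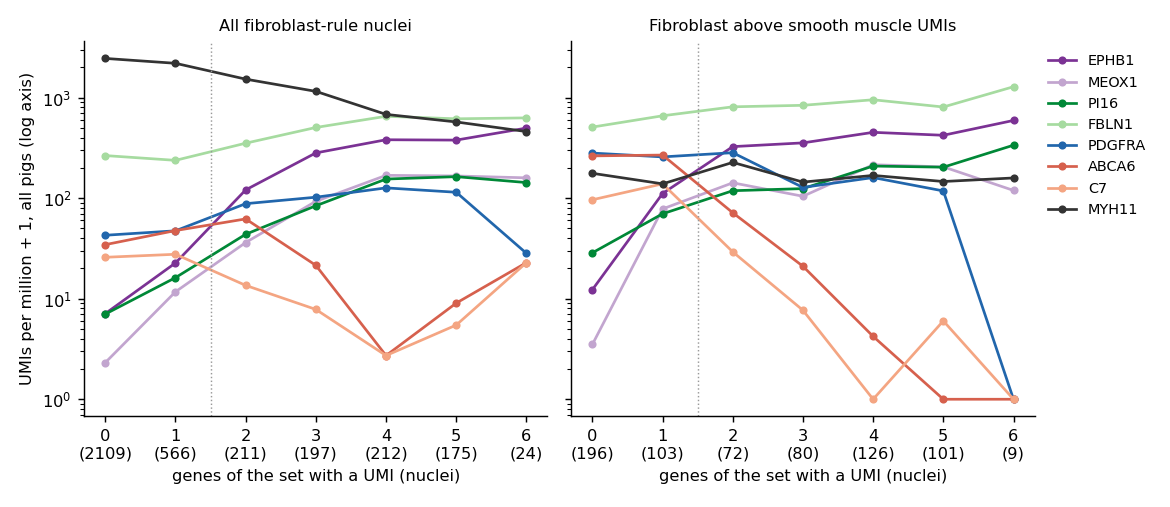
Level of 8 genes in CPM plus 1 (log axis) against the number of the 6 genes with a UMI in a nucleus, all pigs pooled, for all fibroblast-rule nuclei (left) and for those with more fibroblast than smooth muscle UMIs (right), with nuclei per class in brackets. EPHB1, MEOX1 and PI16 are higher to the right of the dotted threshold, MYH11 is lower in the left panel only, and ABCA6 and C7 are lower in the right panel; the class with all 6 genes has 24 nuclei on the left and 9 on the right.

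The 6-gene nuclei made up a smaller share of the aorta in each obese pig than in either control pig. They were 1.61% (95% exact binomial interval 1.30% to 1.97%), 0.907% (0.712% to 1.14%) and 1.41% (1.16% to 1.70%) of nuclei in obese replicates 1 to 3. In control replicates 1 and 2 they were 3.81% (3.45% to 4.19%) and 3.18% (2.71% to 3.71%). The means were 1.31% ± 0.362 (SD, n = 3) and 3.49% ± 0.444 (SD, n = 2), a difference of -2.18 percentage points, obese minus control, and the groups did not overlap. With 3 pigs against 2 the exact two-sided permutation test can give no p below 0.2, and it gave p = 0.2. The intervals cover counting error only.

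Among fibroblast-rule nuclei the same order was seen. The share was 21.2%, 11.9% and 12.5% in the obese pigs and 39.3% and 25.8% in the control pigs, with means of 15.2% ± 5.17 (SD, n = 3) and 32.5% ± 9.56 (SD, n = 2, exact permutation p = 0.2). A share of nuclei with UMIs moves with depth, so every nucleus was also thinned to 1000 UMIs before both steps of the rule. The thinned share was 16.9%, 5.63% and 12.6%, then 37.8% and 27.8%, again without overlap. Among nuclei with more fibroblast than smooth muscle UMIs it was 37.7%, 26.4% and 49.1%, then 72.7% and 69.8%. With both restrictions together, a setting chosen after seeing the data, it was 27.0%, 6.25% and 40.0%, then 47.7% and 51.5%. After the doublet and quality filter the share of fibroblast-rule nuclei was 16.4%, 11.5% and 12.2%, then 35.7% and 24.0%. No setting made the groups overlap.

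**Figure D2:**
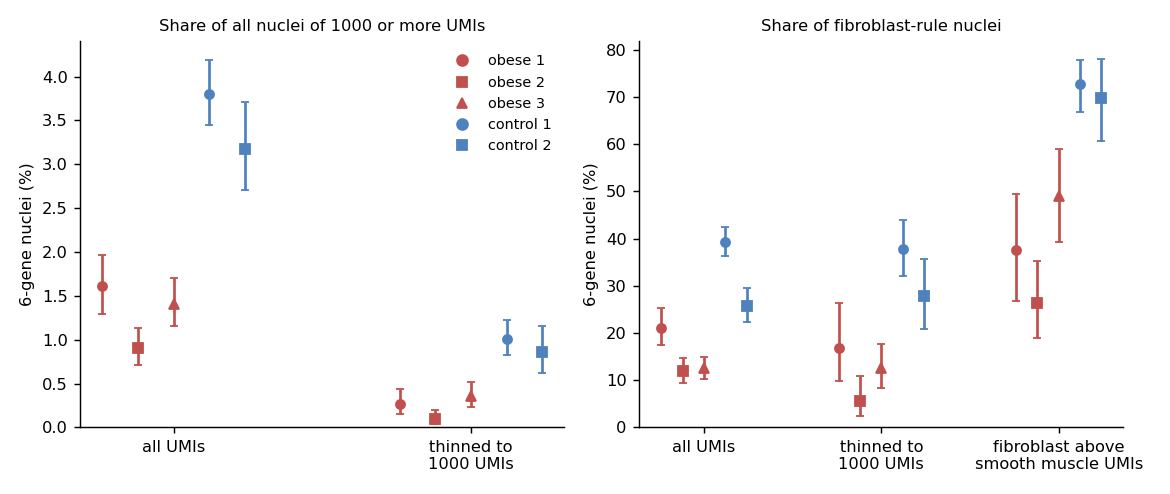
Share of 6-gene nuclei per pig in percent, of all nuclei with 1000 or more UMIs (left) and of fibroblast-rule nuclei (right), with 95% exact binomial intervals that cover counting error only. The 3 obese pigs lie below both control pigs under each setting, from 0.907% to 1.61% against 3.18% and 3.81% of all nuclei. Some intervals of obese and control pigs overlap on the right.

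UMIs of the 6 genes in other classes give the background of such a share. Of smooth muscle nuclei, taken outside the fibroblast rule by UMIs of at least 4 of 6 smooth muscle genes, 4.43%, 2.82% and 1.78%, then 3.40% and 3.06% held at least 2 of the 6 genes, and 1.20%, 0.451% and 0.285%, then 0.898% and 0.973% after thinning. Of fibroblast-rule nuclei thinned in the same way, 11.6%, 5.56% and 8.15%, then 26.2% and 17.4% did. Endothelial nuclei had up to 1.27% after thinning, and macrophage nuclei up to 8.33%, which came from 12 nuclei of control replicate 1. Without thinning endothelial nuclei had up to 6.63% and macrophage nuclei up to 15.6%, or 14 of 90 in obese replicate 1 (4.44% after thinning). That was below the 21.2% of fibroblast-rule nuclei in the same pig and above the 11.9% and 12.5% in obese replicates 2 and 3. Median depth was 3330 to 4296 UMIs in smooth muscle nuclei and 4274 to 5141 in fibroblast-rule nuclei. The share in fibroblast-rule nuclei was above that of smooth muscle nuclei in each pig, with and without thinning. A further 311 nuclei held at least 4 of the 6 genes and were not members, of which 254 had fewer than 2 of the fibroblast genes and 57 held an excluded gene, against 411 among the fibroblast-rule nuclei. By pig these 311 were 90, 36 and 50, then 91 and 44, and the 411 were 34, 20 and 51, then 227 and 79, so a larger part of such nuclei lay outside the rule in each obese pig than in either control pig. Within the rule, nuclei with at least 4 of the 6 genes were 0.601%, 0.248% and 0.679%, then 2.20% and 1.61% of all nuclei, a ratio of control to obese means of 3.74. With the fibroblast step left out they were 2.19%, 0.696% and 1.35%, then 3.08% and 2.51%, a ratio of 1.98, again without overlap (exact permutation p = 0.2 for each). Both settings were chosen after seeing the data.

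The fibroblast markers differed in how they went with the 6 genes. DCN had 124, 207 and 146, then 212 and 123 CPM in the 6-gene nuclei and 25.6, 32.7 and 6.997, then 35.7 and 22.5 CPM in the others, and was higher in all 5 pigs. PI16 had 43.0, 69.7 and 21.7, then 160.5 and 120.2 against 5.92, 11.0 and 2.03, then 13.8 and 7.75 CPM, also higher in all 5. It was higher in both control pigs than in any obese pig, but PI16 is a gene of the rule and nothing is read from that. FBLN1, which encodes the microfibril-associated protein fibulin 1, had 402, 299.7 and 459, then 563 and 709 against 198, 271 and 304, then 215 and 277 CPM. COL1A1, a chain of type I collagen, went the other way, with 169.8, 195 and 230.1, then 241 and 285 CPM in the 6-gene nuclei and 281, 331 and 413, then 291 and 422 CPM in the others, lower in every pig. It was lower in every pig among nuclei with more fibroblast than smooth muscle UMIs too. PDGFRA had 141, 121 and 98.4, then 111 and 60.7 against 91.7, 70.5 and 20.1, then 45.5 and 6.69 CPM, higher in every pig. Among nuclei with more fibroblast than smooth muscle UMIs that order turned, with PDGFRA at 336, 198 and 114, then 149 and 103 against 465, 336 and 219.8, then 193 and 46.4 CPM, lower in the 6-gene nuclei of 4 of 5 pigs. DPT, which encodes dermatopontin, and LUM, the proteoglycan lumican, were low in the 6-gene nuclei, with 0, 0 and 5.79, then 4.60 and 7.29 and 14.3, 30.2 and 2.89, then 9.66 and 9.71 CPM.

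With the genes of the rule counted, 5127 genes reached a mean of 30 CPM in one of the classes. Of these, 976 (19%) were higher in the 6-gene nuclei of all 5 pigs and 744 (14.5%) were lower in all 5. A 2-fold or larger difference in every pig was found for 169 genes (3.3%) upward and 14 (0.273%) downward. Among nuclei with more fibroblast than smooth muscle UMIs, 434 (7.89%) and 431 (7.83%) of 5504 genes were higher and lower in all 5 pigs, 44 (0.799%) and 45 (0.818%) passed the 2-fold limit, and 37 of the 44 were among the 169. Among nuclei of 1000 to 2500 UMIs 52 and 44 did, with 41 of the 52 shared. Without obese replicate 1 the 14 became 59, without obese replicate 3 24 and without control replicate 2 33. These counts describe nuclei that the rule separated by their own UMIs, and no test was made of them.

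The 20 leading genes are described by role, in groups made by hand after their values were seen and with no test. Receptors and secreted signals come first. EPHB1 had 213, 184 and 355, then 281 and 389.8 CPM in the 6-gene nuclei and 15.8, 6.24 and 4.51, then 10.0 and 17.6 CPM in the others, a log2 ratio of 3.75 to 6.30 over the pigs. EPHA3, a receptor for ephrin-A ligands, had 129, 360.1 and 124, then 273 and 202 against 11.3, 14.9 and 8.13, then 23.6 and 17.3 CPM. Both ephrin receptors were also higher in all 5 pigs among nuclei with more fibroblast than smooth muscle UMIs, EPHA3 at 303, 699 and 238, then 392 and 340.2 against 44.9, 44.4 and 45.1, then 42.0 and 46.4 CPM. RSPO3, an R-spondin that strengthens Wnt signals, had 57.4, 99.9 and 56.4, then 64.4 and 75.3 against 3.95, 2.68 and 2.48, then 5.14 and 1.06 CPM, with the high value in obese replicate 2. FGF18, a fibroblast growth factor of cartilage and bone, had 35.9, 44.1 and 57.9, then 21.2 and 55.9 against 2.96, 1.19 and 2.03, then 0.701 and 1.41 CPM. HTR4, a serotonin receptor, had 108, 132 and 86.8, then 183 and 102 against 9.86, 14.3 and 2.26, then 6.77 and 5.28 CPM, and COLEC12, a scavenger receptor, 179, 432 and 187, then 172 and 141 against 29.6, 62.1 and 16.3, then 20.6 and 13.4 CPM. For none of these genes did a pig's value in the other class reach the lowest value in the 6-gene nuclei.

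Ion channel and receptor subunit genes come next. SCN9A, a voltage-gated sodium channel, had 52.6, 179 and 130.2, then 166 and 129 CPM against 4.44, 7.73 and 2.03, then 3.74 and 1.41 CPM. SCN7A, a sodium channel of the same family that the Schwann cell list also holds, had 31.1, 72.0 and 14.5, then 33.1 and 34.0 against 0.986, 5.35 and 1.13, then 0.934 and 1.41 CPM. GRIK4, a kainate-type glutamate receptor subunit, had 81.3, 39.5 and 223, then 156 and 186 against 12.3, 5.65 and 5.64, then 7.94 and 5.99 CPM, and was lowest in obese replicate 2 and highest in obese replicate 3. KCTD16, an auxiliary subunit of GABA-B receptors, had 402, 741 and 408, then 361 and 294 against 38.5, 42.5 and 30.2, then 35.7 and 28.9 CPM. Of the 4 glutamate receptor genes at 30 CPM, GRIA4 and GRIK4 were higher in all 5 pigs, against 19% of all genes. GRIA4 is a gene of the rule and was high by construction. GRIN2A, a subunit of NMDA receptors, was higher in 4 pigs, with no UMI in the 6-gene nuclei of obese replicate 2. GRIA1, GRIA2 and GRIA3, the other subunits of AMPA receptors, stayed at or below 9.20 CPM in the 6-gene nuclei of every pig. In the sortilin family SORCS3 had at most 4.78 CPM and SORCS1 was at 19.1, 181 and 4.34, then 2.76 and 3.64 CPM, high in obese replicate 2 alone.

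The other leading genes had mixed roles. ZNF521, a zinc finger transcription factor, had 361, 455 and 556, then 389 and 375 against 27.1, 70.5 and 32.7, then 36.0 and 46.5 CPM, and COL11A1, a collagen of cartilage fibrils, 47.8, 53.4 and 127, then 49.7 and 71.6 against 4.93, 2.08 and 1.13, then 2.57 and 1.41 CPM. ST8SIA1, the ganglioside GD3 synthase, had 67.0, 125 and 140.4, then 113 and 47.4 against 5.92, 11.9 and 6.32, then 3.74 and 1.76 CPM, and AK5, an adenylate kinase, 105, 163 and 82.5, then 132 and 106 against 16.8, 9.81 and 8.80, then 19.6 and 9.16 CPM. SLCO1C1, a transporter of thyroid hormone, was highest in control replicate 1 (9.56, 18.6 and 27.5, then 87.4 and 21.9 CPM). SPSB4, ZNF804A, ICA1, CCDC170 and PTPRT completed the 20, with median log2 ratios of 4.79, 5.17, 3.39, 2.98 and 3.09. Among nuclei with more fibroblast than smooth muscle UMIs 17 of the 20 genes were higher in all 5 pigs, ZNF804A and PTPRT in 4 and SLCO1C1 in 3. The ratios were smaller there, for example 3.86 for EPHB1 and 1.74 for SPSB4 as medians over the pigs, against 4.81 and 4.79.

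**Figure D3:**
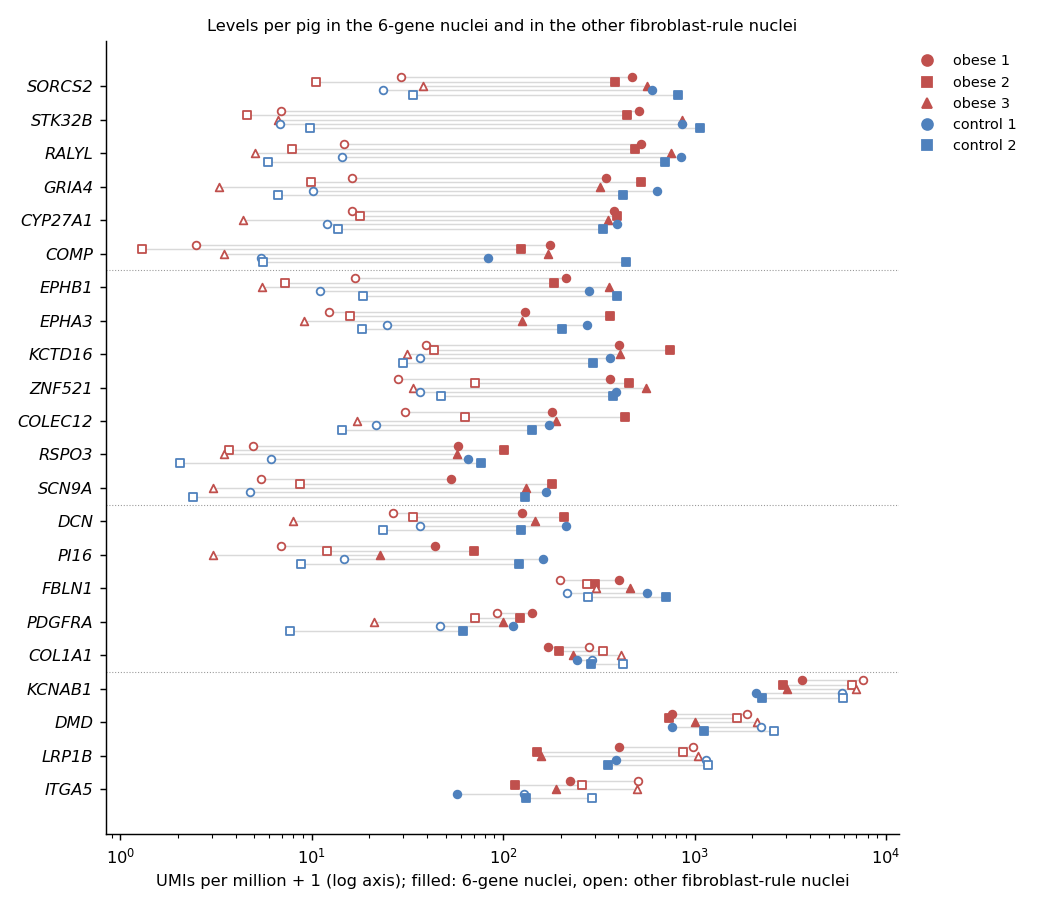
CPM plus 1 (log axis) per pig in the 6-gene nuclei (filled) and in the other fibroblast-rule nuclei (open), for the 6 genes of the rule, 7 of the 20 leading higher genes, 5 fibroblast genes of the rule and 4 of the 12 leading lower genes. Each line joins the 2 values of a pig; DCN and PI16 lie to the right and COL1A1 to the left in the 6-gene nuclei of all 5 pigs.

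On the lower side 12 leading genes were taken. KCNAB1, a subunit of voltage-gated potassium channels, had 3629.7, 2899 and 3029, then 2096 and 2255 CPM in the 6-gene nuclei and 7583, 6658 and 6935, then 5853 and 5935 CPM in the others. DMD, which encodes dystrophin, had 763, 736 and 1000.0, then 757 and 1117 against 1869.5, 1669 and 2121, then 2213 and 2606 CPM. ITGA5, a chain of the fibronectin receptor, had 222, 114 and 188, then 56.1 and 129.9 against 503, 257 and 497, then 128 and 289.8 CPM, with both classes lowest in control replicate 1. The smooth muscle sum moved with these genes, as given above. ITGA5, DMD and KCNAB1 were also lower in all 5 pigs among nuclei with more fibroblast than smooth muscle UMIs, where ITGA5 had 56.1, 52.7 and 105, then 31.2 and 75.9 against 919.7, 239 and 693, then 134 and 220.2 CPM. The same held for LRP1B, of the LDL receptor family, A2M, the protease inhibitor alpha-2-macroglobulin, SLC16A7, a monocarboxylate transporter, and PEAR1, with 399, 149 and 156, then 387 and 353 against 979, 863 and 1039, then 1138 and 1176 CPM for LRP1B and 45.4, 46.5 and 33.3, then 85.1 and 34.0 against 106, 168 and 76.7, then 477 and 97.2 CPM for A2M. The remaining 5 of the 12 leading lower genes, TMEM108, NPR1, FLNC, MYOZ2 and GLDN, were lower in all 5 pigs of the full classes and in 4 pigs or fewer under that restriction.

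Matrix genes split by type. Over all genes 19% were higher and 14.5% lower in the 6-gene nuclei of all 5 pigs. With more fibroblast than smooth muscle UMIs these shares were 7.89% and 7.83%. Level counts of lists here and below include genes of the rule, such as FBLN1, COL1A1, DCN and PI16, whose levels follow in part from the rule. Of 13 elastic fibre and microfibril genes at 30 CPM, 7 were higher and 2 lower in the 6-gene nuclei of all 5 pigs (median log2 ratio 0.82, 0.52 with more fibroblast than smooth muscle UMIs, against medians of 0.03 and -0.03 over all genes). LTBP2, a microfibril protein of the latent TGF-beta binding family, had 669.5, 604 and 879.9, then 1303 and 1168 CPM against 120.3, 143 and 215, then 146 and 136 CPM. LTBP1, which holds latent TGF-beta in the matrix, had 1265, 1308 and 1787, then 852 and 999 CPM against 2574, 1861 and 2007, then 1773 and 1833 CPM, lower in every pig. The related proteins thus went opposite ways in the same nuclei, and did so among nuclei with more fibroblast than smooth muscle UMIs too. FBN1, fibrillin 1 of the microfibrils, had 636, 757 and 844, then 904 and 733 against 409, 398 and 437, then 549 and 407 CPM. ELN, the elastin gene, had 564, 381 and 593, then 692 and 1098 against 559.7, 851 and 1312, then 739 and 1151 CPM, lower in 4 of 5 pigs.

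Of 12 interstitial collagen genes 7 were higher and COL1A1, a gene of the rule, alone was lower in all 5 pigs (median 0.49, and 0.30 under the restriction). The background of the list counts was again 19% of all genes higher and 14.5% lower. COL6A3, a chain of type VI collagen, had 304, 904 and 305, then 496 and 389.8 against 83.3, 196 and 31.4, then 63.5 and 35.9 CPM, while COL6A1 of the same trimer had 112, 123 and 82.5, then 108 and 183 against 99.1, 137 and 116, then 104 and 166 CPM with no common direction. Of 14 basement membrane genes 4 were higher and 7 lower (median -0.62, and -0.76 under the restriction). COL4A1, a chain of type IV collagen, had 1619, 1336 and 1026, then 703 and 922 against 2019, 1674 and 1917, then 1092 and 1967 CPM. LAMC3, the laminin gamma 3 chain, stood apart from it with 354, 360.1 and 482, then 923 and 758 against 50.8, 80.0 and 41.3, then 220.5 and 119 CPM, higher in every pig. All 5 adventitial and universal fibroblast genes at 30 CPM, PI16 of the rule among them, were higher in all 5 pigs (median 1.99). Under the restriction 3 of 8 were, with a median of 0.65. SEMA3C, a secreted semaphorin, had 177, 274 and 359, then 160.0 and 119 against 70.5, 62.1 and 61.8, then 40.2 and 52.8 CPM. Of 6 small leucine-rich proteoglycans 4 were higher, DCN of the rule among them, and none lower (median 1.07, and 1.18 under the restriction). BGN, biglycan, had 132, 130.1 and 198, then 156 and 225 against 63.1, 57.4 and 96.2, then 56.1 and 101 CPM.

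Transcription factor genes were mixed, with 4 of 17 higher and 4 lower in all 5 pigs. The background of each list count here was 19% of all genes higher and 14.5% lower, and 7.89% and 7.83% under the restriction. GLI2, an effector of hedgehog signals, had 1375, 825 and 1388, then 1776 and 1865 CPM against 313, 329 and 432, then 433 and 517 CPM, and MEOX1 had 35.9, 18.6 and 73.8, then 166 and 119 against 6.41, 2.68 and 1.58, then 3.74 and 5.28 CPM, both higher in all 5 pigs, also under the restriction. Of 10 circadian clock genes 6 were higher in all 5 pigs (median 0.70, and 0.39 with 2 of 10 under the restriction), among them RORA, a nuclear receptor of the clock, with 277, 272 and 271, then 353 and 233 against 120.3, 154 and 119.6, then 208 and 127 CPM. Heat shock genes (9, median -0.46) and caveolae genes (3, median -0.74) had none higher and 2 lower each. CYP7B1, the oxysterol 7-alpha-hydroxylase that acts on products of CYP27A1, had 76.5, 48.8 and 62.2, then 38.6 and 46.1 CPM in the 6-gene nuclei and 215, 137 and 116, then 120.3 and 79.9 CPM in the others, lower in every pig, also under the restriction.

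The 6-gene nuclei were also split by COMP. The 155 nuclei with a COMP UMI were 22, 12 and 26 in the obese pigs and 45 and 50 in the control pigs, or 24.2%, 16.4% and 24.5%, then 11.5% and 32.1% of the 6-gene nuclei. ACAN, the cartilage proteoglycan aggrecan, had 49.5, 139 and 101, then 131 and 184 CPM in nuclei with COMP and 23.6, 28.9 and 53.5, then 17.7 and 27.1 CPM in those without, higher in every pig. Pooled over pigs ACAN rested on 104 and 97 UMIs, at 129 and 26.0 CPM. FMOD, the collagen-binding proteoglycan fibromodulin, had 78.2 against 17.1 CPM and CILP2, a cartilage intermediate layer protein, 38.5 against 2.41 CPM, both higher in all 5 pigs. Single pigs rested on few UMIs here. In the obese pigs CILP2 had 1, 1 and 2 UMIs with COMP and 2, 1 and 1 without. FMOD had 3 and 1 in obese replicate 1. COL11A1 (148 against 48.0 CPM), CILP (36.0 against 2.95) and FGF18 (120.4 against 18.5) were higher in 4 of 5. For CILP, obese replicate 2 had 1 UMI with COMP and 0 without, and control replicate 1 had 1 and 4. STK32B, SORCS2, LTBP2 and PI16 were higher with COMP in all 5 pigs, STK32B at 1439.8 against 688 CPM and LTBP2 at 1476 against 1006 CPM. Of the 17 cartilage and tendon matrix genes in the files, 8 had 20 or more UMIs in this split over all pigs. Of these, ACAN, CILP2 and MATN2 were higher with COMP in all 5 pigs and COL11A1 and CILP in 4, with the few UMIs per pig given above for CILP2 and CILP. The other 3, MATN4, SOX5 and SOX6, were higher in 2, 1 and 2 pigs. The remaining 9 genes, among them COL2A1, COL9A1, MATN3, SCX and TNMD, had too few UMIs to be read. THBS4, a thrombospondin of tendon, was higher with COMP in 3 of 5. GRIA4 (271 against 563 CPM) and HTR4 (48.4 against 162 CPM) were lower with COMP in all 5, and PTPRT (24.8 against 102 CPM) in 4. RALYL was at 757 and 737 CPM. A nucleus with COMP needed 1 more of the 6 genes to be a member and one without COMP needed 2 of the other 5, so values of the 6 genes in this split follow in part from the rule. Median depth was 4679, 4318 and 3922, then 4860 and 3474.5 UMIs with COMP and 3743, 5360 and 4880, then 4694 and 4585 without. Genes of this split outside the cartilage and tendon list, and the minimum of 20 UMIs, were chosen after values were seen, and the split has no test.

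**Figure D4:**
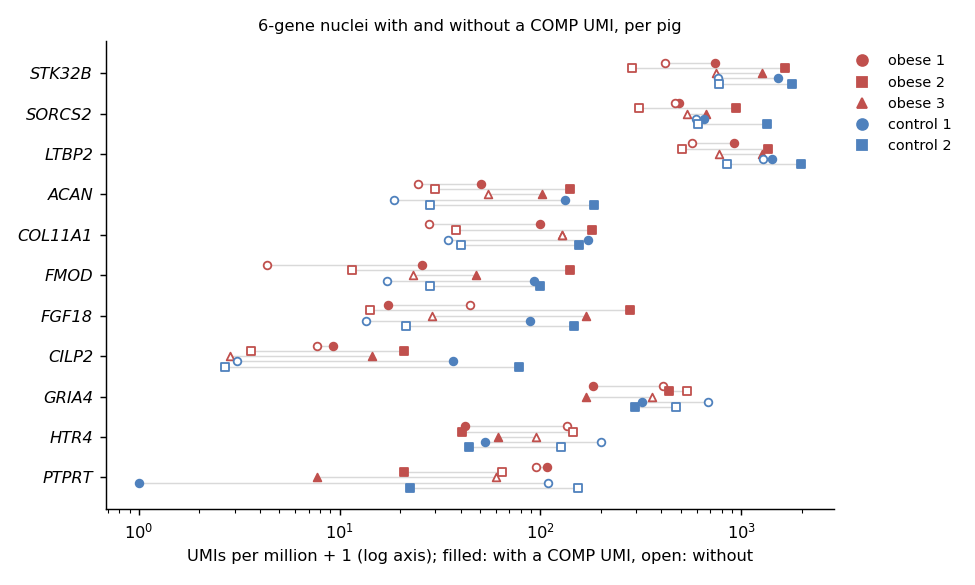
CPM plus 1 (log axis) per pig in 6-gene nuclei with a COMP UMI (filled) and without one (open), for 11 genes. ACAN, FMOD, CILP2, STK32B, SORCS2 and LTBP2 are higher with COMP in all 5 pigs, GRIA4 and HTR4 are lower in all 5, and a value at 1 stands for no UMI. With COMP, CILP2 rests on 1, 1 and 2 UMIs in the obese pigs.

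The diet groups were then compared within the 6-gene nuclei, with counts summed per pig and tested over 7532 genes. No gene passed an adjusted p of 0.05 by the quasi-likelihood test of edgeR (0% called), and 730 genes (9.69%) had an unadjusted p under 0.05, 439 higher (5.83%) and 291 lower (3.86%) in obese pigs. The 3 obese values exceeded the 2 control values for 918 genes (12.2%) and were below them for 1094 (14.5%), and 51.7% of the fold changes were above 0. The DESeq2 Wald test called 50 genes and limma-voom 0. The count was 12 without obese replicate 2, 3 without obese replicate 3 and 193 with no filter on low counts. In the other fibroblast-rule nuclei, with more RNA per pig, 17 of 12172 genes (0.14%) were called, 15 higher (0.123%) and 2 lower (0.0164%). That count was 0 without either control replicate, 1 without obese replicate 1, and 71 or 74 without obese replicate 2 or 3. Values of single genes below are therefore given as values, as log2 fold changes of obese over control pigs with adjusted p over all genes.

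The genes of the rule chose these nuclei by their own UMIs, so their diet values are listed with no test and nothing is read from them. The log2 fold change was -0.55 for SORCS2, -0.62 for STK32B, -0.35 for RALYL, -0.41 for GRIA4 and 0.07 for CYP27A1. COMP had -0.70, which without control replicate 2 became 0.97. Of the fibroblast genes of the rule, PI16 had -1.68 and PDGFRA 0.48. Lists below that hold a gene of the rule are counted with it.

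Of the genes of smallest p on the higher side, 5 are described here, which were largely regulators of RNA decay and of transcription. ZFP36L2, which promotes decay of AU-rich messenger RNA, had 146, 237 and 185, then 28.5 and 49.8 CPM, with all obese pigs far above both control pigs, and a log2 fold change of 2.33 (SE 0.36, adjusted p = 0.176, edgeR). FOSL2, a subunit of the transcription factor AP-1, had 160.2, 72.0 and 161, then 19.8 and 25.5 CPM and 2.60 (SE 0.44). ARID5B, a DNA-binding cofactor, had 383, 516 and 319.8, then 139 and 131 CPM and 1.60 (SE 0.27), and DUSP1, a phosphatase that turns off MAP kinases, 160.2, 156 and 142, then 54.3 and 53.4 CPM and 1.52 (SE 0.27). PTGER3, a prostaglandin E2 receptor, had 531, 342 and 466, then 148 and 129 CPM and 1.71 (SE 0.29). None of these 5 genes had overlapping groups, which their choice by p favours, and each had the same adjusted p as ZFP36L2. In the other fibroblast-rule nuclei the fold changes were 3.25, 2.44, 1.43, 3.01 and 1.13 in that order, and the difference between the classes was -1.46 for DUSP1 (adjusted p = 0.755, edgeR).

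On the lower side the genes of smallest p included signals and matrix. SFRP1, a secreted inhibitor of Wnt signals, had 47.8, 53.4 and 42.0, then 130.1 and 178 CPM and -1.67 (SE 0.30, adjusted p = 0.176, edgeR). COL21A1, a collagen associated with fibrils, had 57.4, 67.4 and 107, then 257 and 261 CPM and -1.68 (SE 0.31), and ITGB5, an integrin chain that binds vitronectin, 440.0, 409 and 506, then 1014 and 1191 CPM and -1.26 (SE 0.24). The obese pigs were close together for ITGB5. They were below both control pigs for all 3 genes, which the choice by p favours. FGF1, a fibroblast growth factor, had 62.2, 41.8 and 65.1, then 172 and 159 CPM and -1.51 (SE 0.30), and PYGL, a glycogen phosphorylase, 45.4, 58.1 and 53.5, then 169 and 121 CPM and -1.44 (SE 0.29). For SFRP1 the log2 fold change in the other fibroblast-rule nuclei was -0.35, for COL21A1 -1.02, for FGF1 -0.72 and for PYGL -0.55. All 10 of these genes named by p kept their sign among nuclei with more fibroblast than smooth muscle UMIs, with -1.69 for SFRP1 and 3.18 for FOSL2.

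**Figure D5:**
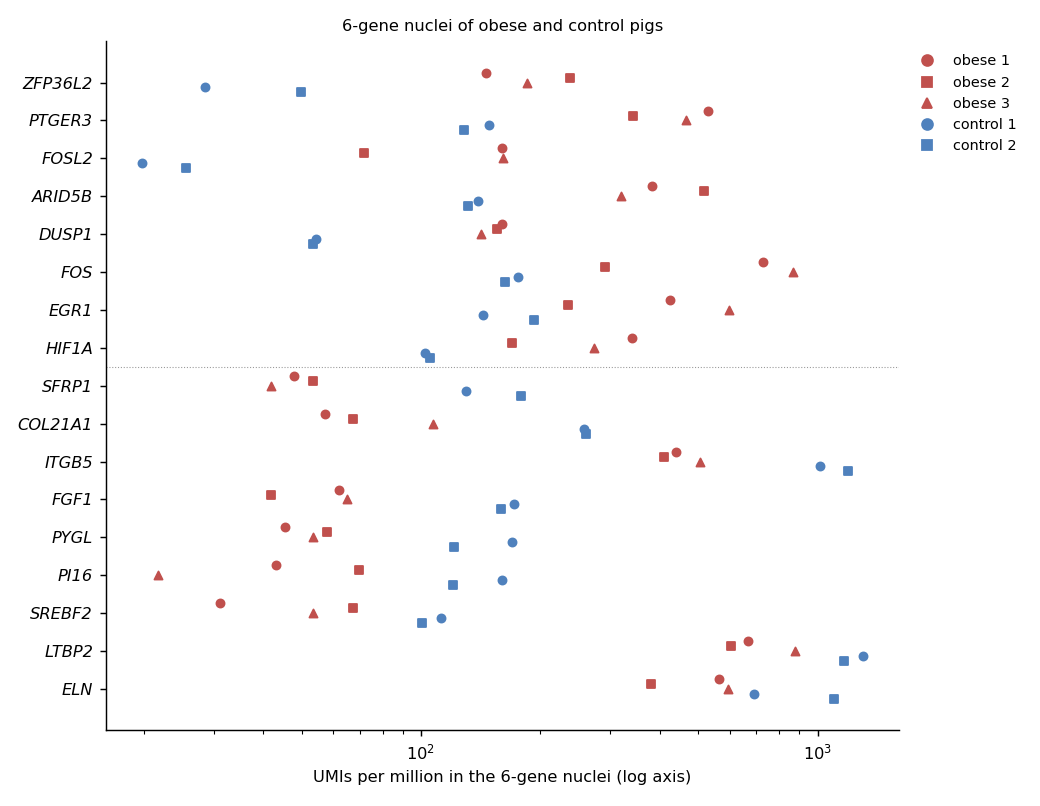
CPM (log axis) in the 6-gene nuclei of each pig for 17 genes, 8 with higher values in obese pigs (above the dotted line) and 9 with lower values. The genes were picked by p or from the gene lists, so it is a description that the 3 obese pigs (red) and 2 control pigs (blue) do not overlap for them. Of all 7532 genes tested 12.2% separated upward and 14.5% downward, and 0 passed an adjusted p of 0.05. PI16 is a gene of the rule and is shown as a description.

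Gene lists were described by counts and medians beside the median of 0.02 over all genes tested. Immediate early and AP-1 genes, which respond quickly to stimuli, had values above 0 for 15 of 15 tested members, with 8 of them separating the groups upward, 11 at an unadjusted p under 0.05 and a median of 1.37. The background was the 12.2% of all genes given above for such separation, and 5.83% for such a p on the higher side. FOS had 727, 290.4 and 868, then 176 and 163 CPM (1.93, SE 0.44), EGR1 426, 235 and 599, then 143 and 193 CPM (1.37, SE 0.40), FOSB 1.92 and NR4A1 0.93. Obese replicate 2 had the lowest value of the obese pigs for FOS, FOSB, EGR1 and NR4A1. The list had a median of 1.53 in the other fibroblast-rule nuclei, 0.88 to 2.26 over the alternatives in the 6-gene nuclei, and none of its genes was called in the 6-gene nuclei. Hyaluronan genes were above 0 in 6 of 6 (2 separated upward, median 0.90), with UAP1, which makes a sugar precursor, at 1.15, VCAN, the proteoglycan versican, at 0.65, CD44, the hyaluronan receptor, at 0.58 and UGDH at 0.70. Hypoxia and glycolysis genes were above 0 in 7 of 9 (2 upward and 1 downward, median 1.20, and 0.42 with 3 genes among nuclei with more fibroblast than smooth muscle UMIs). HIF1A, the oxygen-regulated transcription factor, had 339.5, 169.6 and 274, then 102 and 106 CPM and 1.36 (SE 0.33). NDRG1 had 1.46 and PFKFB3, a glycolytic regulator, 1.73.

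Sterol genes were below 0 in 6 of 6 (3 separated downward, against 14.5% of all genes, median -0.76, and -1.23 in the other fibroblast-rule nuclei). SREBF2, which encodes the master regulator of cholesterol synthesis, had 31.1, 67.4 and 53.5, then 112 and 101 CPM and -1.04 (SE 0.34, adjusted p = 0.399, edgeR). LSS and FDFT1, enzymes of the pathway, had -0.41 and -0.48. Of 9 oxysterol and LXR genes 5 were above 0 (3 upward, 1 downward, against 12.2% and 14.5% of all genes, median 0.07). ABCA1, a cholesterol exporter, had 411, 376 and 262, then 206 and 85.0 CPM and 1.26 (SE 0.37), and 1.85 in the others, where it rose (adjusted p = 0.0426, edgeR). CYP7B1 had 0.60. PPARA, a receptor for fatty acids, had 83.7, 55.8 and 52.1, then 154 and 154 CPM and -1.26 (SE 0.29), in a lipid storage list with 4 of 8 above 0 (2 upward, 3 downward, median -0.03).

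Elastic fibre and microfibril genes were above 0 in 4 of 16 (3 separated upward and 7 downward, 3 and 6 at an unadjusted p under 0.05), with a median of -0.51 in the 6-gene nuclei and 0.03 in the others. Over all genes 12.2% separated upward and 14.5% downward, the background of each list count here. An unadjusted p under 0.05 was found for 5.83% of all genes upward and 3.86% downward. LTBP2 had 669.5, 604 and 879.9, then 1303 and 1168 CPM and -0.75 (SE 0.25), against 0.19 in the others, a difference of -0.94 (adjusted p = 0.755, edgeR). ELN had 564, 381 and 593, then 692 and 1098 CPM and -0.78 (SE 0.30), while LTBP1 had 1265, 1308 and 1787, then 852 and 999 CPM and 0.68 (SE 0.27). So LTBP1 was higher and LTBP2 lower in each obese pig than in either control pig. FBN1 had -0.10. Basement membrane genes divided evenly, with 8 of 16 above 0 (4 upward, 6 downward, median -0.01). LAMC3 had 354, 360.1 and 482, then 923 and 758 CPM and -1.04 (SE 0.26), COL15A1 189, 237 and 385, then 611 and 501 CPM and -0.99, while COL4A1 had 0.72 and LAMC1 0.63. Of 12 interstitial collagens 5 were above 0 (1 upward, 3 downward, median -0.21), and COL12A1 was highest with 0.90.

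Wnt and BMP genes were above 0 in 6 of 11 (1 upward, 5 downward), with a median of 0.04, and of -0.74 among nuclei with more fibroblast than smooth muscle UMIs. Each list count in this paragraph stands beside the 12.2% of all genes that separated upward and the 14.5% downward. WNT5B, a Wnt ligand, had -1.04, and WIF1 and DKK3, secreted Wnt antagonists, -0.68 and -0.64, beside SFRP1 above. Osteochondrogenic and calcification genes were above 0 in 8 of 8 (3 upward, median 0.35). MGP, an inhibitor of calcification, had 299, 808 and 282, then 241 and 198 CPM, with obese replicate 2 far above the rest, and 1.08 (SE 0.42). RUNX1, a transcription factor, had 631, 657 and 486, then 338 and 304 CPM and 0.90. Among proteases and inhibitors 7 of 9 were above 0 (2 upward, 2 downward, median 0.51). ADAMTS2, which trims procollagen, had -0.70. Adventitial genes were above 0 in 5 of 8 (4 upward, 3 downward, median 0.46), and the median was -0.66 with 5 genes under the restriction. This list holds PI16 of the rule. SEMA3C had 0.99 in the full class. Transcription factor genes were above 0 in 8 of 19 (2 upward, 3 downward, median -0.05), with EBF1, an early B-cell factor also made in fibroblasts, at 1492, 3025 and 1103, then 906 and 799 CPM (1.14) and GLI2 at -0.58.

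The remaining lists are given by their counts, beside the 12.2% of all genes that separated upward and the 14.5% downward. Inflammatory mediators were above 0 in 5 of 7 (3 upward, median 1.18, 1 gene tested under the restriction). Heat shock genes were above 0 in 7 of 9 (1 upward, median 0.66, -0.22 without control replicate 1 and 2.27 without control replicate 2). Growth factor ligands and receptors were above 0 in 11 of 14 (4 upward, 2 downward, median 0.29), and glutamate receptors in 4 of 6 (0 separated, median 0.62). TGF-beta genes were above 0 in 10 of 14 (2 upward, median 0.06), thrombospondins and matricellular genes in 6 of 13 (2 each way, median -0.02), cartilage and tendon genes in 4 of 6 (1 downward, median 0.10), with the matrilin MATN2 at -0.58, and small proteoglycans in 4 of 9 (1 each way, median -0.06). Glucocorticoid genes were above 0 in 5 of 10, with 6 of the 10 separating the groups, 3 in each direction, and a median of 0.05. Insulin and FOXO genes were above 0 in 6 of 11 (2 each way, median 0.05) with FOXO1 at 0.79 and FOXO3 at 0.90, neural adhesion genes in 8 of 18 (4 upward, 2 downward, median -0.07) and clock genes in 5 of 11 (1 each way, median -0.08). Caveolae genes were above 0 in 3 of 4 (1 downward, EHD2 at -0.96), sortilin family genes in 1 of 3 (1 each way), STK32 and RALY genes in 0 of 3, ribosomal protein genes in 3 of 5 (1 upward, 2 downward) and complement genes in 2 of 2. Of the mitochondrially encoded genes only COX1 had enough counts to be tested.

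No gene passed an adjusted p of 0.05 for a difference of the diet effect between the 6-gene nuclei and the other fibroblast-rule nuclei by edgeR's quasi-likelihood test (0 of 12044, 0%), and 555 (4.61%) had an unadjusted p under 0.05. DESeq2 called 2 genes and limma-voom 0, and the count was 2 without obese replicate 3, 1 without control replicate 1 and 4 without control replicate 2. EMP1, an epithelial membrane protein, had 189, 102 and 263, then 127 and 83.8 CPM in the 6-gene nuclei and 226, 73.7 and 253, then 32.0 and 23.9 CPM in the others, so the groups overlapped in the 6-gene nuclei and not in the others, with a difference of -1.85 (SE 0.30, adjusted p = 0.161, edgeR). RUNX1 had 436, 400.2 and 169, then 56.5 and 43.0 CPM in the others and a difference of -1.77 (SE 0.31, adjusted p = 0.179, edgeR). PRRX2, a homeobox gene of mesenchyme, had 227, 177 and 256, then 282 and 312 CPM in the 6-gene nuclei, where obese pigs were lower, and 215, 193 and 196, then 99.7 and 109 CPM in the others, where they were higher, a difference of -1.38 (SE 0.25, adjusted p = 0.242, edgeR). On the other side COL28A1 had the smallest p (adjusted p = 0.121, edgeR) and rested on obese replicate 2, with 4, 63 and 0, then 2 and 0 UMIs in the 6-gene nuclei. ST6GALNAC5, a sialyltransferase, and PITPNC1, a lipid transfer protein, followed with differences of 3.12 and 0.93 (adjusted p = 0.755 each, edgeR).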

How the data were processed

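The deposited matrices hold raw UMI counts for each gene and barcode. They were made with Cell Ranger, version 7.1.0 per the file headers and 5.0 per the submitters' processing notes, which also name Seurat 5.0 and the pig build Sscrofa11. The capture was 10x Genomics 3' chemistry per the labels' protocols, so a level is not compared between genes. Members and gene lists were chosen with earlier results of these data known.

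Of 45580 barcodes, 36447 with 1000 or more UMIs entered the rule. Member counts were summed per pig and tested in edgeR 4.0.16 (R 4.3.3, quasi-likelihood F-test, TMM factors, filterByExpr by group, Benjamini-Hochberg over all genes tested, called at an adjusted p under 0.05, 3 residual degrees of freedom). The difference of the diet effect was a class by diet term with the pig as a block. The test of shares was an exact permutation of the pigs, two-sided, and their intervals are Clopper-Pearson. Alternatives were DESeq2 1.42.0, voom of limma 3.58.1, no filter, DESeq2 size factors, stricter rules, removal of Scrublet's highest scores (scanpy 1.11.5), thinning to 1000 UMIs and leaving out each pig. The fits were tested on simulated data.

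Genes were named by rule. It took the genes used to choose members, the 20 with the highest lowest-pig ratio and the 12 with the lowest highest-pig ratio at 30 CPM or more, and 6 genes per direction of diet by p, since none was called. A few genes that the rule took are not reported here. It also took 3 per direction of the difference and up to 4 per list by level. Where a class of a pig held fewer than 3 counts of a gene, the ratio was taken against 3 counts, as a bound. Other genes, such as MEOX1, ABCA6, COL6A1, CYP7B1 in levels and the genes of the COMP split, were named after their values were seen.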

Additional observations from a re-analysis of the deposited data

How the results depend on the processing

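The share difference kept its direction, with no overlap of the pigs' shares between the groups, under every alternative run. Leaving out a pig is not a test there, since the exact test cannot pass 0.05. Counts of called genes were less stable. In the 6-gene nuclei 0 genes were called, and 193 with no filter on low counts, 50 with DESeq2 and 0 to 12 when a pig was left out. In the other fibroblast-rule nuclei 17 were called, and 595 with no filter, 226 with DESeq2, 9 with limma-voom, 0 with 3 or more of the 7 fibroblast genes, 0 among nuclei with more fibroblast than smooth muscle UMIs and 0 to 74 when a pig was left out. For the difference of the diet effect 0 genes were called, and 50 with no filter, 2 with DESeq2 and 0 to 4 when a pig was left out. Where a control pig was left out, the spread of the other was taken from the obese pigs. The cause of these changes was not tested. Genes 2-fold higher in every pig numbered 169, and 52 among nuclei of 1000 to 2500 UMIs, 44 with more fibroblast than smooth muscle UMIs and 176 to 214 when a pig was left out. Genes 2-fold lower numbered 14, and 44, 45 and 16 to 59 in the same order. When a pig was left out, the log2 fold change of obese over control pigs ranged from -1.52 to 0.97 for COMP, -1.22 to 0.041 for LSS and -0.033 to 0.14 for CYP27A1, each crossing 0 without control replicate 2, and from -0.25 to 0.0017 for FBN1 and -0.13 to 1.00 for UGDH, each crossing 0 without obese replicate 1. Among nuclei with more fibroblast than smooth muscle UMIs RALYL was at 0.14 and COMP at 0.0094, CYP27A1 was at -0.053 with no filter, and UGDH was at -0.11 in members with smooth muscle UMIs at or above fibroblast UMIs, a setting chosen after seeing the data. Of 909 single-gene diet values under alternatives, 834 kept sign and side of the threshold, 66 passed it and 9 changed sign.

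Replicate numbers did not pair the pigs. Deviations of same-numbered pigs from their group means had correlations of 0.00071 and -0.00083 over genes, each pig being another animal. With the replicate block, which leaves obese replicate 3 without a partner, 131 genes were called in the 6-gene nuclei and 74 in the others.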
